A study of Mus musculus with 12 samples.

Results

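White fat of mice fed CLA was compared with white fat of mice fed LA at 12 h, across 12593 genes, on 4 of the study's 12 arrays. Each array held RNA pooled from the RP tissue of 5 mice, a depot name the labels do not spell out. With 2 pools a diet, the 4 arrays stood for 20 of 60 mice. The labels write the diets as CLA and LA, which usually stand for conjugated linoleic acid and linoleic acid, and name the LA pools as the controls. Other pools of both diets were taken at 4 and 24 h, again 2 a diet, and all 12 were called white adipose tissue. The sources used here do not give strain, sex, age, dose, isomers of CLA or the event from which the hours were counted.

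CLA is a family of linoleic acid isomers with conjugated double bonds, and feeding it is known to shrink the fat depots of mice. White fat stores triglyceride, which its adipocytes assemble from fatty acids taken up from blood or made from glucose. Insulin and the transcription factors SREBP1 and ChREBP keep the enzymes of that synthesis on. Cells with damaged proteins, too few amino acids or too many oxidants raise separate sets of genes, run by heat shock factor, by ATF4 with CHOP, and by NRF2.

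The tissue label was checked first. All 16 measured adipocyte markers were tested and none passed, with a median log2 change of 0.03. Of the 16, 9 were higher with CLA and 7 lower, with changes from -1.18 to 0.405. Pools of the diets did not overlap in 8, among them Lep, Slc2a4 and Pparg, which read lower with CLA and are given below. Adiponectin, Adipoq, which adipocytes secrete, read 54257 and 47582 in the CLA pools and 51729 and 44159 in the LA pools, and the fatty acid carrier Fabp4 read 75269 and 68981 in the CLA pools and 71219 and 69607 in the LA pools. These levels are scaled intensities, the deposited values after each array was brought to a trimmed mean of 500. Fabp4 gave the brightest value of some of these arrays, so its readings may not show a difference between the diets. On the 12 h arrays 45.2% to 46.6% of probe sets read 100 or more, the level below which a value was treated as only a bound. The signal at the 3′ end of Actb over that at its 5′ end, a sign of RNA integrity, was 4.24 and 6.10 in the CLA pools and 3.80 and 6.41 in the LA pools, and 2.35 to 4.13 at the other times. Skeletal muscle markers stood apart between the diets: 11 of 12 tested were higher with CLA, none passed, and their summed level was 7171 and 4777 against 1827 and 2154 with LA. Fast myosin Myh4 read 1034 and 664 against 46.3 and 148, while Tnnt3, Ckm and Actn3 were at or below 0 in the LA pool of replicate 1. At the other times the sum ran from 1140.0 to 6148, and the part of muscle in the results below was not tested.

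At 12 h, 267 genes were higher with CLA, 2.12% of those tested, and 300 were lower, 2.38%. The test was limma over all 12 arrays with Benjamini-Hochberg adjustment over 12593 genes and a threshold of 0.05, and SEs below are from that fit with 2 pools a diet. In each of the 567 genes both pools of one diet lay above both of the other, as they did in 52.8% of all tested genes. The change was over 2-fold in 166 of the higher and 190 of the lower genes, and over 4-fold in 41 and 33. The smallest change that passed was 0.56 on the log2 scale, and the median SE over all genes was 0.25. The median change of all tested genes was -0.02. In a bulk sample, fewer cells of a type and less RNA per cell cannot be told apart.

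Calls depended on the other times and on single arrays. Fitted on the 4 arrays of 12 h alone, limma called 0 genes higher and 0 lower, with 2463 at an unadjusted p under 0.05, and with 1 scaling factor shared by all arrays 73 were higher and 120 lower. Without the LA pool of replicate 2, 41 genes were higher and 17 lower, and 54 of those 58 were among the 567. Of 140 called genes named or held in the gene lists below, 31 kept their call without each of the 12 arrays in turn. Those 31 are Adamts9, Atf3, Cbr3, Cdkn2c, Chac1, Cxcl1, Cxcl10, Ddit3, Gas5, Gclm, Hmox1, Hspa1a, Hspa1b, Hspa4l, Hspb1, Ifrd1, Mllt11, Mthfd2, Ntpcr, Oxtr, Pnpla3, Ppp1r15a, Ppp1r3b, Ppp1r3c, Ptx3, Slc3a2, Sqstm1, Srxn1, Tfrc, Trabd2b and Trib3. The calls lost without a pool of 12 h numbered 81 and 75 for the CLA pools of replicates 1 and 2, and 91 and 106 for the LA pools. No called gene of these changed sign under any left-out array. Some kept their call in only 2 of the 12 fits that left out an array. Among them were Mreg, Asns, Slc7a1, Dnaja1, Hspa4, Hsp90b1, Psmc3, Mt1, Agpat2, Prkaca, Ivd, Rxrg, Nsdhl, Mcm2 and Mcm6.

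Among genes that reached 100 on all 4 arrays, the rises with the largest folds were led by chaperones, stress regulators and a chemokine. Hspa1b, an inducible HSP70 chaperone, read 26747 and 29055 in the CLA pools and 1279.7 and 1635 in the LA pools, a 19.1-fold difference (4.25 ± 0.31 on the log2 scale, adjusted p = 0.00140). Cxcl1, which draws neutrophils, read 998 and 1626 in the CLA pools and 103 and 100.1 in the LA pools, 11.0-fold. Both LA pools of Cxcl1 lay at the detection level, and both CLA pools far above it. Trib3, a pseudokinase induced by ATF4 and CHOP, read 1807 and 1587 in the CLA pools and 149 and 168 in the LA pools, 9.82-fold. The small chaperone Hspb1, also called HSP25, read 29390.5 and 26437 in the CLA pools and 2756 and 3506 in the LA pools, 8.93-fold. Metallothionein Mt2, which binds zinc and copper, read 8103 and 5208 in the CLA pools and 700.5 and 839 in the LA pools, 8.32-fold, and its CLA pools were further apart from each other than those of Hspb1. The LA pools of 4 h read 1953 and 7929 for Mt2, the second of them within the range of the CLA pools at 12 h.

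The other 10 of the 15 rises lay between 5.23-fold and 7.20-fold. Atf3, a stress-induced repressor of the ATF family, read 1436 and 1186 with CLA and 157 and 178 with LA. Ddit3, the gene of CHOP, read 2923 and 3194 with CLA and 540.0 and 409.9 with LA, and Ppp1r15a, which restores translation after stress by bringing a phosphatase to eIF2, read 1830.1 and 1695 with CLA and 247 and 315 with LA. Hmox1, the haem-degrading enzyme, read 2076 and 1920.3 with CLA and 298 and 333 with LA, and Srxn1, which repairs oxidised peroxiredoxins, read 4118 and 4472 with CLA and 748 and 764 with LA. In each of these 5 genes the pools of a diet differed far less from each other than the diets did. Sqstm1, the autophagy receptor p62, read 21132 and 17249 with CLA and 3802 and 2786 with LA. At the other times the LA pools of Sqstm1 read higher, from 4958 to 6512. Ifrd1, a transcriptional co-regulator, read 24716 and 24806 with CLA and 4063 and 5486 with LA, and Mllt11 read 1893 and 2658 with CLA and 299.9 and 448 with LA. Mreg, a carrier of melanosomes and lysosomes, read 834 and 848 with CLA and 127 and 158 with LA. Chka, choline kinase, read 939 and 1396 with CLA and 238 and 124 with LA on its brightest probe set, while its other 2 probe sets did not pass, so its 6.15-fold is uncertain. Each of the 12 arrays was left out in turn, and Mt2, Chka and Mreg kept their calls in 6, 8 and 2 of these 12 fits.

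The falls were led by glycogen regulators. Ppp1r3b, which brings protein phosphatase 1 to glycogen, read 452 and 726 in the CLA pools and 6992 and 7401 in the LA pools, 12.2-fold lower with CLA (-3.61 ± 0.28, adjusted p = 0.00151). Its relative Ppp1r3c read 545 and 691 in the CLA pools and 4059 and 4781 in the LA pools, 7.02-fold lower, and Ppp1r3d read 186 and 537 in the CLA pools and 1436 and 1326 in the LA pools, 4.18-fold lower. The CLA pools of Ppp1r3d were far apart from each other, yet both were below the LA pools. Pnpla3, a lipid droplet enzyme under SREBP1 control, read 531 and 856 in the CLA pools and 4274 and 5278 in the LA pools, 6.90-fold lower. Bhlhe40, a clock repressor, read 276 and 545 in the CLA pools and 2940.0 and 2452 in the LA pools, and Dhcr7, the last enzyme of cholesterol synthesis, read 342 and 665 in the CLA pools and 2560.5 and 4171 in the LA pools, 6.67-fold and 6.66-fold lower.

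Tfrc, the transferrin receptor that takes up iron, read 533 and 467 with CLA and 2596 and 3176 with LA, 5.61-fold lower. Mid1ip1, which activates acetyl-CoA carboxylase, read 1926 and 2959 with CLA and 9264 and 16228 with LA, 5.11-fold lower, with its LA pools far apart but above both CLA pools. Oxtr, the oxytocin receptor, read 1257 and 880.3 with CLA and 4310.4 and 4908 with LA. Bcl6, a transcriptional repressor, read 328 and 662 with CLA and 1758 and 2025 with LA, and its second probe set did not pass. Trabd2b, an inhibitor of Wnt proteins, read 239.9 and 136 with CLA and 967 and 1287 with LA. Zfp467, a zinc finger protein that favours adipocytes over osteoblasts, read 305 and 227 with CLA and 1064 and 1198 with LA, and Zfp185 read 317 and 139 with CLA and 1088 and 907 with LA. Fam241a read 1374 and 1211 with CLA and 6136 and 6194 with LA, and both of its probe sets passed. Ncan, a brain proteoglycan, read 332 and 364 with CLA and 2208 and 2053 with LA on its brightest probe set, while its other 2 did not pass. In Pnpla3, Mid1ip1, Oxtr, Dhcr7, Fam241a, Ppp1r3d, Zfp467 and Zfp185 both 12 h LA pools read above every LA pool of 4 and 24 h. The highest LA value of those times was 3379 for Pnpla3, 7956 for Mid1ip1 and 3445 for Oxtr. The 12 h CLA pools of these genes lay below every LA pool of 4 and 24 h too. Of these 15 falls, 6 kept their call without each array in turn, and the others reached adjusted p between 0.0534 for Bhlhe40 and 0.163 for Zfp185 without 1 of them.

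**Figure D1:**
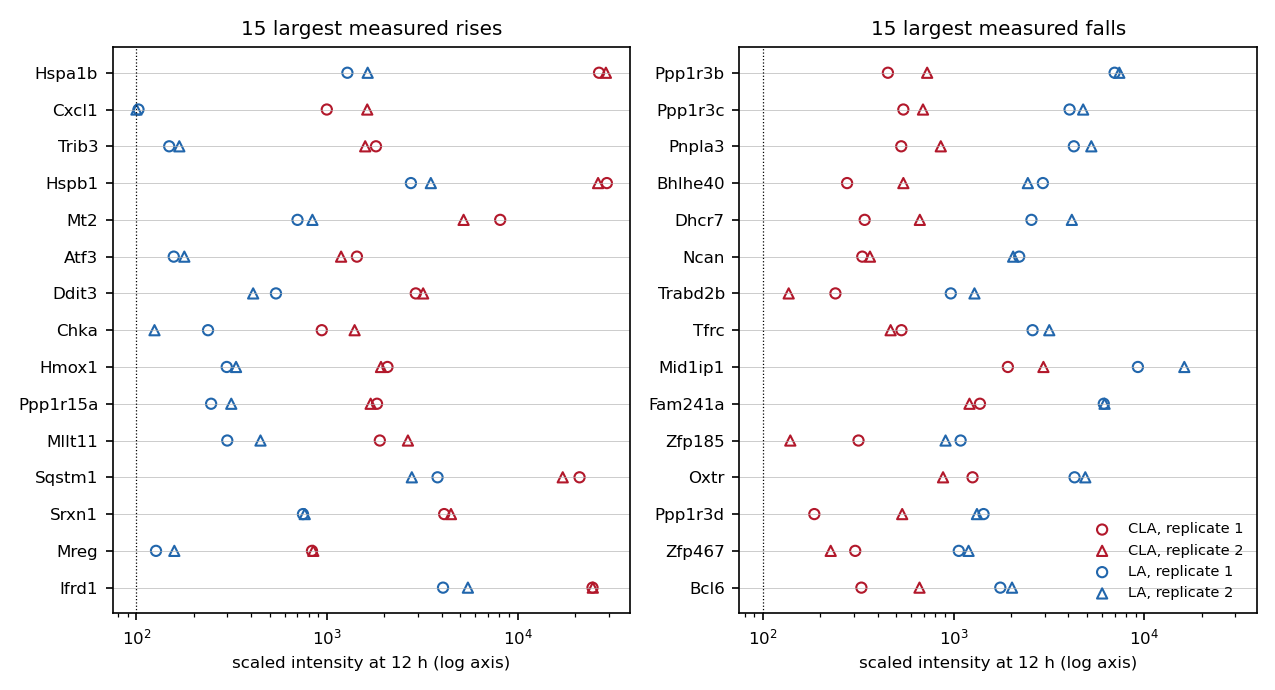
Scaled intensity (horizontal, log axis) of the 15 largest measured rises (left) and falls (right) in each of the 4 pools of 12 h, circles for replicate 1 and triangles for replicate 2. The red CLA pools and blue LA pools do not overlap in any row, as the choice of genes required. The dotted line marks 100, below which a value is only a bound.

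Heat shock chaperones were the list with the most rises. These proteins hold or refold damaged proteins, and heat shock factor switches them on by binding inverted repeats of GAA in their promoters. Of 30 listed genes 26 passed the filter on dim probe sets, 13 of them rose and 1 fell, with a median log2 change of 0.84. At 12 h, 2.12% of all tested genes rose. The promoters of the strongly raised chaperones are shown here because the 2 HSP70 genes can hardly be told apart by sequence. Each run is 300 bases of RefSeq sequence (GRCm38.p6), 250 before and 50 from the gene's start on, read on the gene's strand, and capitals mark matches to GAANNTTC.
Hspa1a, chr17:34972107-34972406, minus strand: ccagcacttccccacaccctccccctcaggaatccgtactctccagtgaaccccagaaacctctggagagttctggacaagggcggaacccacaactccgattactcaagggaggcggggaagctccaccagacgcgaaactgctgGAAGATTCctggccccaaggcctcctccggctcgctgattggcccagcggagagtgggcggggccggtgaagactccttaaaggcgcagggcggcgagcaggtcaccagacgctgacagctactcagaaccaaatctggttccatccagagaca
Hspa1b, chr17:34959189-34959488, minus strand: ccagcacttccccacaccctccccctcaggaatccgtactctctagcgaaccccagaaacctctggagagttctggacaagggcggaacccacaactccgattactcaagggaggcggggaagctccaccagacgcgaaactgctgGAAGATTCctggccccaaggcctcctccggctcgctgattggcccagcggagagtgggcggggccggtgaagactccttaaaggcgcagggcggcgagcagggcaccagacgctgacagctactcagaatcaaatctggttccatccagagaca
Hspb1, chr5:135887669-135887968, plus strand: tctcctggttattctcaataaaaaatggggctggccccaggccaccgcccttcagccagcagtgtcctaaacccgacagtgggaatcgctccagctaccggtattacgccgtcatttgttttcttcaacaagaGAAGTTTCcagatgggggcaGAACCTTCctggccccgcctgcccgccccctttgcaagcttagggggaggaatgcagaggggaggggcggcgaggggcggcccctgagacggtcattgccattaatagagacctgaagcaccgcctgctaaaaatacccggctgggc

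Between the Hspa1a and Hspa1b promoters 4 of 300 bases differed, an identity of 98.7%, and the match lay at position -104 in both, counted from the gene's first base as 0. Hspb1 held 2 matches, at -117 and -97. GAANNTTC reads the same on both strands, and 2582 of 32851 promoters of this length, 7.86%, held it. Of the 13 raised chaperone genes 12 were in the promoter table and 7 held a match, and of 9 other listed genes 5 did. A match describes the letters of this window and no more.

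Hspa1a read 5308 and 5787 in the CLA pools and 94.1 and 185 in the LA pools. Here and below, where 1 or both pools of a diet read under 100, those pools are set to 100 and the fold is given as a bound. The difference in Hspa1a, with 1 LA pool under 100, was at least 36.4-fold. The 3 probe sets of Hspa1b rose alike, by 4.25 to 4.84 on the log2 scale. Since transcripts of this pair are nearly identical, how the signal divides between Hspa1a and Hspa1b is uncertain. Hsph1, an HSP110 chaperone that exchanges nucleotide on HSP70, read 8254 and 10386 against 2386 and 3355, CLA pools first. Its relative Hspa4l read 1619 and 1686 against 502 and 500.3, with the pools of each diet close together. Bag3, a partner of HSP70 in selective autophagy, read 3010.1 and 2427 against 965 and 851. J-domain partners of HSP70 rose too. Dnajb4 read 12096 and 9581 against 3916 and 3612, Dnajb1 read 7212 and 8161 against 2984 and 2827, and Dnaja1 read 19718 and 19147 against 11108 and 10471. Hsp90aa1, the inducible HSP90, read 28300.0 and 28695 against 12208 and 12042, and its activator Ahsa1 read 4328 and 5261 against 2435 and 2712. Hspa4, another HSP110 chaperone, read 7799 and 8047 against 4344 and 4757, though its log2 change was as small as 0.31 under another processing setting. The mitochondrial chaperonin Hspd1 read 22488 and 22561 against 13689 and 13529.9. In all of these both CLA pools lay above both LA pools, as in every gene called higher.

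Hspa14, a ribosome-bound HSP70, was the chaperone that fell, at 887 and 645 with CLA and 1536 and 1451 with LA. Of the 12 chaperones that did not pass, Hspa8, the constitutive HSP70, read 41284 and 42907 with CLA and 32920.4 and 33988 with LA (adjusted p = 0.311), and Hspe1, the partner of Hspd1, read 17769 and 19867 with CLA and 9432 and 10025 with LA (adjusted p = 0.0556). Hspa1a, Hspa1b, Hspb1 and Hspa4l kept their calls without each array in turn. Without the CLA pool of replicate 2, or either LA pool, 5 of the 13 remained, and 5 passed when all arrays shared 1 scaling factor.

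**Figure D2:**
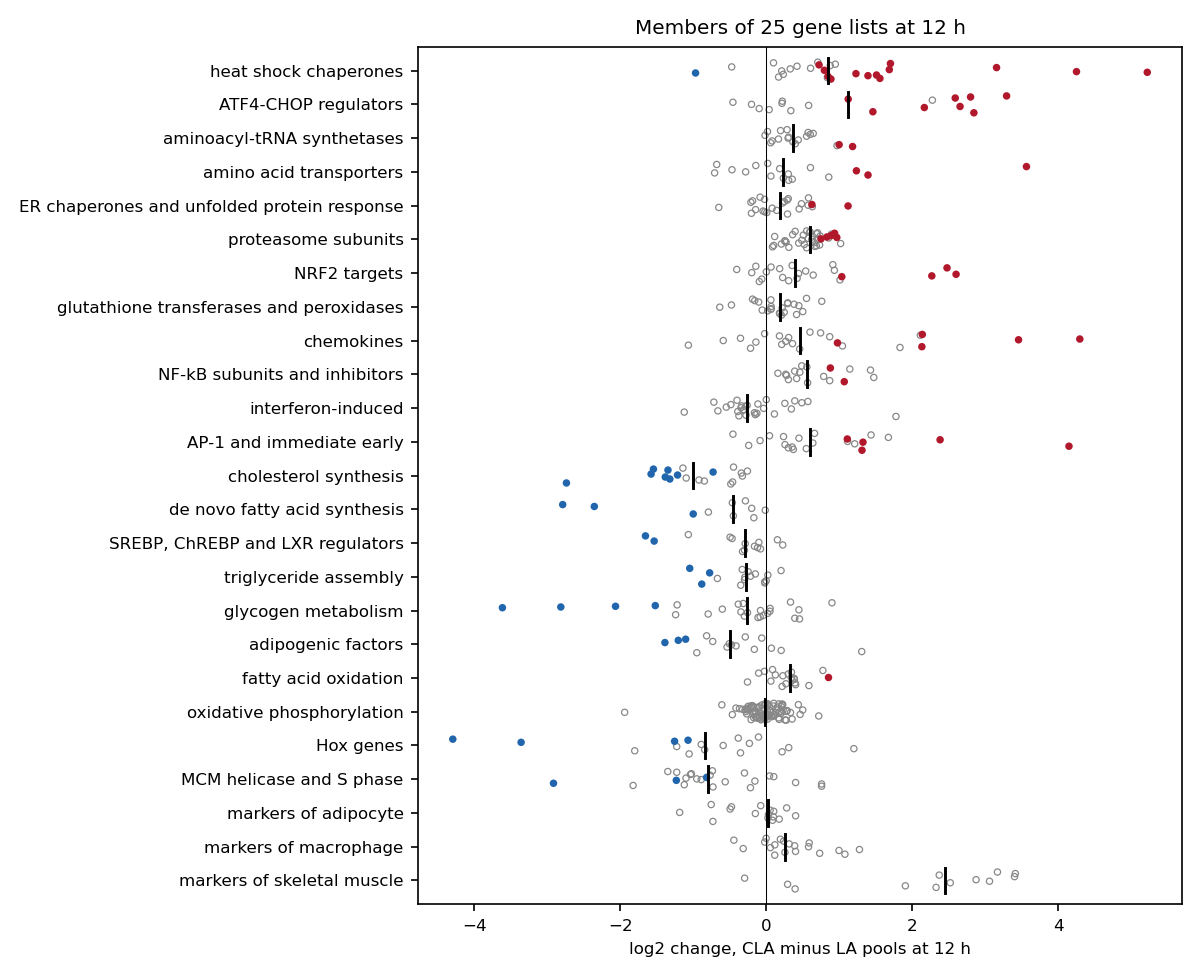
Log2 change at 12 h (horizontal) of each tested member of 25 gene lists (rows), filled red or blue where the gene passed and open where it did not, with a black bar at the list's median. Filled points gather on the right for chaperones, ATF4-CHOP regulators and chemokines and on the left for cholesterol synthesis and glycogen metabolism, and the open points of skeletal muscle markers lie mostly on the right.

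The ATF4-CHOP genes belong to the integrated stress response, in which phosphorylated eIF2 slows translation while ATF4 is made and turns on CHOP and the genes of amino acid supply. Of 17 measured regulators and early targets 8 rose and none fell, their median log2 change being 1.13, which became 0.72 once values under 100 were set to 100. Over all tested genes 2.12% rose. Besides Trib3, Atf3, Ddit3 and Ppp1r15a, the glutathione-cleaving enzyme Chac1 read 1355 and 1613 with CLA and 276 and 362 with LA, 4.50-fold higher. Atf4 itself read 4970.4 and 4794 with CLA and 1785 and 1734 with LA, 2.76-fold, and Nupr1, a stress-induced chromatin protein, read 14677 and 12401 with CLA and 6528 and 5839 with LA. Sesn2, which senses leucine for mTORC1, read 199.9 and 153 with CLA and 30.9 and -33.3 with LA, at least 1.65-fold. The kinases that phosphorylate eIF2 under ER stress and amino acid shortage did not pass, Eif2ak3 at 346 and 376 with CLA and 449 and 556 with LA and Eif2ak4 at 153 and 250.3 with CLA and 178 and 154 with LA. Fgf21, a hormone that ATF4 induces in liver, read 161 and 226 with CLA and 97.3 and -12.5 with LA (adjusted p = 0.173). Without the CLA pool of replicate 1 or the LA pool of replicate 2, 5 of the 8 remained.

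ATF4 binds, with a C/EBP partner, sites of the form TGATGNAA. The promoters of Trib3 and Atf3 are shown as the largest rises of this list, with matches to TGATGNAA on either strand in capitals.
Trib3, chr2:152344011-152344310, minus strand: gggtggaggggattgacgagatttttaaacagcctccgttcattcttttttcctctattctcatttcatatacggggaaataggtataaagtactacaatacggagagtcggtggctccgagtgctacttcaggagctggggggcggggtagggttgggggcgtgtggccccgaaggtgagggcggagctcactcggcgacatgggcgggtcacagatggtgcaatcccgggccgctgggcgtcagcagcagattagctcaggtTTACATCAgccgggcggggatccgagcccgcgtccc
Atf3, chr1:191183284-191183583, minus strand: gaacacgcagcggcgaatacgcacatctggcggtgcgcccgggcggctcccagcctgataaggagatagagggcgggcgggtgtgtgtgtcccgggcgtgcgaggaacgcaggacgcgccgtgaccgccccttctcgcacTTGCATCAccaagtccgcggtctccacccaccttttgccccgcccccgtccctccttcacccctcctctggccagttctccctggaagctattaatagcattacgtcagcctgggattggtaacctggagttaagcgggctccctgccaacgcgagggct
Both matches lie on the reverse strand, at position 14 in Trib3 and -110 in Atf3. The promoter of Sesn2, the next largest fitted rise of the list, is not shown and held no match. Of the 8 raised genes 4 held a match and of the other 9 listed genes 1 did, while 1304 of 32851 promoters, 3.97%, held it.

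Genes that supply and charge amino acids moved in part. Of 17 measured amino acid transporters 3 rose: Slc3a2, the shared heavy chain of several carriers, at 8249 and 8592 with CLA and 3015 and 3369 with LA; its light chain Slc7a5, at 177 and 170.4 with CLA and -82.9 and -85 with LA; and the arginine and lysine carrier Slc7a1, at 1255 and 1440.4 with CLA and 461 and 681 with LA. Slc7a5 was at or above 100 only with CLA, at least 1.64-fold. The cystine carrier Slc7a11, a common ATF4 target, read 41.4 and 122 with CLA and 84.7 and 44.7 with LA and did not pass. Of 15 measured enzymes of amino acid and one-carbon synthesis 2 rose, Asns (asparagine synthetase), at 7171 and 8752 with CLA and 4644 and 4359 with LA, and Mthfd2, the mitochondrial folate enzyme, at 907 and 957 with CLA and 253 and 199.7 with LA. Its cytosolic relative Mthfd1 fell, at 898 and 926 with CLA and 1618 and 1875 with LA. Among 19 aminoacyl-tRNA synthetases 18 were higher with CLA (median 0.37) and 2 rose. Aars, which charges alanine, read 3337 and 3083 with CLA and 1339 and 1466 with LA, and Eprs, which charges glutamate and proline, read 5395 and 5319 with CLA and 2755 and 2584 with LA. Of 46 translation initiation factors 2 rose, a share near the 2.12% of all tested genes, Eif6, which keeps ribosome subunits apart, at 2006 and 1966 with CLA and 964 and 1066 with LA, and the eIF3 subunit Eif3d, at 5285 and 5341 with CLA and 2496 and 3190.4 with LA. Under another processing setting the log2 change of Eif6 was as small as 0.18. Slc3a2 and Mthfd2 kept their calls without each array, and the other 8 lost theirs in several of the 12 fits that left out an array. Asns and Slc7a1 passed in 2 of these fits and Slc7a5 in 4. Mthfd1, Eif6 and Eif3d passed in 6, and Aars and Eprs in 8.

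The unfolded protein response of the ER was represented by 24 measured genes, of which 2 rose, where 2.12% of all tested genes rose. Ero1a, the oxidase that feeds disulfide formation, read 2041 and 2257 with CLA and 957 and 996 with LA, 2.18-fold higher, and the ER chaperone Hsp90b1 read 11839 and 10474 with CLA and 7637 and 6786 with LA, 1.55-fold higher. The main ER chaperone Hspa5, BiP, read 28327 and 31858 with CLA and 20154 and 22846 with LA (adjusted p = 0.172), and the ER stress factor Xbp1 read 10738 and 12673 with CLA and 12436 and 12255 with LA (adjusted p = 0.847). Xbp1 levels of the diets overlapped, and those of Hspa5 did not, as in 52.8% of all tested genes. Neither Ero1a nor Hsp90b1 passed without either LA pool or the CLA pool of replicate 2.

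NRF2 is released when oxidants modify its anchor Keap1, and turns on genes of glutathione synthesis and peroxide repair. Of 22 measured targets 4 rose and none fell, with a median log2 change of 0.39, against 2.12% of all tested genes that rose. Besides Srxn1 (5.58-fold, adjusted p = 0.00123) and Hmox1 (6.08-fold, adjusted p = 0.00151), the subunits of glutamate-cysteine ligase rose. Its modifier Gclm read 5214 and 6506 with CLA and 1234 and 1155 with LA, 4.83-fold, and its catalytic subunit Gclc read 947 and 1218 with CLA and 500 and 530.3 with LA, 2.05-fold. Txnrd1, thioredoxin reductase, read 4613 and 6516 with CLA and 3108 and 2705 with LA (adjusted p = 0.0786), and the quinone reductase Nqo1 read 201 and 124 with CLA and 77.5 and 138 with LA (adjusted p = 0.690). Nfe2l2, the gene of NRF2, read 2921 and 3093 with CLA and 2943 and 3052 with LA, and Keap1 read 1242 and 1500.0 with CLA and 962 and 1035 with LA. None of 24 glutathione transferases and peroxidases passed, with a median of 0.19. The calls of Srxn1, Hmox1 and Gclm held without each array, while Gclc lost its call without 1 or more. Over the left-out arrays the log2 change of Gclc ran from 0.61 to 1.22. A gene's brightest probe set can change when an array is left out, so the size of this rise may depend on the probe set.

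Metal handling, autophagy and protein breakdown each held a few called genes, where 2.12% of all tested genes rose and 2.38% fell. Of 10 measured metal genes Mt1 rose with Mt2, reading 12529.5 and 9440.0 with CLA and 3998 and 4201 with LA, and Tfrc fell. The ferritin chain Fth1 read 32874 and 30584 with CLA and 26113 and 28082 with LA (adjusted p = 0.597). Among 17 autophagy genes Sqstm1 rose and so did Gabarapl1, a membrane tag of autophagosomes, at 11148 and 9081 with CLA and 3854 and 3769 with LA. The proteasome, which degrades ubiquitin-tagged proteins, showed small shifts of 1 sign: all 37 measured subunits were higher with CLA, with a median log2 change of 0.60, and 5 rose. The ATPase subunits Psmc6 and Psmc3 rose: Psmc6 read 12262 and 12221 with CLA and 6358 and 6130.3 with LA, and Psmc3 read 7572 and 7023 with CLA and 4842 and 3855 with LA. The ubiquitin receptor Psmd4 read 12964 and 12514 with CLA and 6744 and 6527 with LA. Of the other lid and base subunits Psmd12 read 8793 and 9445 with CLA and 4861 and 4954 with LA, and Psmd1 read 6270.2 and 5694 with CLA and 3276 and 3415 with LA. No proteasome gene passed without the CLA pool of replicate 1 or either LA pool, 12 passed under another left-out array, and none passed when all arrays shared 1 scaling factor, which gave a median of 0.47. Of the 12 fits that left out an array, Mt1 kept its call in 2 and Gabarapl1 in 9.

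Chemokines are small secreted proteins that draw leukocytes into a tissue. Of 23 measured chemokines 5 rose and none fell, against 2.12% of all tested genes that rose, with a median of 0.46, or 0.27 with values under 100 set to 100. Cxcl10, which draws T cells, read 1779.6 and 3215 in the CLA pools and 114 and 99.2 in the LA pools, at least 19.6-fold (adjusted p = 0.00449). Ccl2, the main monocyte chemokine, read 663 and 1032 in the CLA pools and 163 and 189.7 in the LA pools, 4.39-fold. Cxcl2, a neutrophil chemokine, read 159.9 and 187 in the CLA pools and 37.1 and 18.6 in the LA pools, at least 1.63-fold, and Ccl7, another ligand for monocytes, read 171 and 235 in the CLA pools and 102 and 86.5 in the LA pools, at least 1.85-fold. In all 5 both CLA pools lay above both LA pools, as in every gene called higher. The CLA pools of Cxcl10, Cxcl1 and Ccl2 were well apart from each other. Ptx3, a pentraxin of innate immunity, read 877 and 1353 in the CLA pools and 105 and 69 in the LA pools, at least 9.32-fold, the 1 called gene of 9 acute phase genes. Saa3 read 858 and 948 with CLA and 551 and 595 with LA (adjusted p = 0.430). Cxcl1, Cxcl10 and Ptx3 kept their calls without each array, and Ccl2, Cxcl2 and Ccl7 lost theirs without the LA pool of replicate 2, at up to 0.0504, 0.0964 and 0.175 over all left-out arrays.

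The wider inflammatory lists held fewer calls, where 2.12% of all tested genes rose. All 17 measured NF-kB subunits and inhibitors were higher with CLA, with a median of 0.56, and 2 rose. Birc2, a ubiquitin ligase of TNF signalling, read 1533 and 1471 with CLA and 753 and 662 with LA, and Tnip1, an inhibitor of NF-kB, read 1485 and 2192 with CLA and 969.6 and 975 with LA. Tnfaip3, another inhibitor, read 847 and 847 with CLA and 379 and 368 with LA (adjusted p = 0.132), and Nfkbia read 12892 and 15924 with CLA and 7143 and 9606 with LA (adjusted p = 0.342). None of 21 cytokines and STAT3 genes passed: Il6 read 12.3 and -2.90 with CLA and 36 and 50.6 with LA and Il1b read 91.3 and 88.6 with CLA and 132 and 83.9 with LA, at or near the detection level in both diets. None of 28 interferon-induced genes passed (median -0.27), nor did any of 13 complement or 7 MHC class II genes. Markers of leukocytes did not pass either, 19 of macrophages, 7 of neutrophils, 5 of T and NK cells, 4 of B cells and 5 of mast cells. The macrophage marker Cd68 read 1021 and 607 with CLA and 706 and 609 with LA, Cd14 read 738 and 1121 with CLA and 469 and 379.5 with LA (adjusted p = 0.0723), and the neutrophil marker S100a9 read 19.6 and 31 with CLA and 107 and 91.7 with LA. The summed level of macrophage markers was 47320.1 and 36089 with CLA and 37289 and 33188 with LA. Their part in the chemokine rises was not tested. Birc2 and Tnip1 did not pass without the LA pool of replicate 2, nor when all arrays shared 1 scaling factor.

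Among 22 AP-1 and other immediate early genes 5 rose and none fell, where 2.12% of all tested genes rose. Fosl1, a FOS partner of JUN, read 487 and 579 with CLA and -50.9 and 43.3 with LA, at least 4.72-fold, and Jun read 1850.1 and 2079 with CLA and 718 and 828 with LA, 2.51-fold. Of the small MAF proteins, which pair with NRF2 on DNA, Maff read 1277 and 1136 with CLA and 261 and 181 with LA. Mafg read 562 and 489.9 with CLA and 217 and 252 with LA, a smaller difference. Btg2, an antiproliferative gene, read 923 and 685.5 with CLA and 314 and 306.5 with LA, and Ier3 read 664 and 1133 with CLA and 354 and 376 with LA (adjusted p = 0.0685). Of 18 dual-specificity phosphatases, which switch off MAP kinases, Dusp16 rose, at 1445 and 1362 with CLA and 528 and 439 with LA. Of 22 p53 targets and death genes 4 rose, namely Mdm2, which degrades p53, at 2026 and 1937 with CLA and 830.3 and 1091 with LA, the death receptor Fas, at 1514 and 1499 with CLA and 698 and 531 with LA, Casp4, which senses bacterial lipid in the cytosol, at 766 and 957 with CLA and 320.0 and 325 with LA, and the kinase Plk3, at 362 and 498 with CLA and 118 and 164 with LA. Cdkn1a, the p53 target p21, read 1152 and 1296 with CLA and 864 and 926 with LA (adjusted p = 0.175). Ccn1, a matricellular protein, read 1409 and 1209 with CLA and 479.9 and 538 with LA, and Gas5, a noncoding RNA that builds up when translation slows, read 6321 and 6085 with CLA and 2539.9 and 2779.8 with LA. Only Gas5 of the genes in this paragraph kept its call without each array, and none of the AP-1 genes passed without the LA pool of replicate 1 or either CLA pool.

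Cholesterol synthesis fell along much of its length. SREBP2 and, in part, SREBP1 switch these enzymes on together when sterols run low. All 18 measured genes were lower with CLA, 8 of them fell, and the median log2 change was -1.01. At 12 h, 2.38% of all tested genes fell. From the start of the pathway, Hmgcs1 read 7775 and 6270.0 with CLA and 16604 and 18299 with LA, Mvd read 236 and 151 with CLA and 566 and 625 with LA and Idi1, the isomerase that makes dimethylallyl diphosphate, read 1981 and 2097 with CLA and 5109 and 5566 with LA. Sqle, squalene epoxidase, read 856 and 591 with CLA and 1989.8 and 2223 with LA, 2.91-fold lower. Of the enzymes after lanosterol, Msmo1 read 1121 and 1219 with CLA and 2967 and 2513 with LA, Nsdhl read 4116 and 3619 with CLA and 6623 and 6171 with LA and Sc5d read 4981 and 4293 with CLA and 11573 and 11955 with LA. Dhcr7, at the end, had the largest fold of the list, 6.66. Lss, which closes the sterol rings, did not pass, at 1562 and 1374 with CLA and 1777 and 1899.8 with LA (adjusted p = 0.453), and Cyp51 read 3183 and 3401 with CLA and 4311 and 4919 with LA (adjusted p = 0.239). No gene of the list passed without the LA pool of replicate 2, while up to 10 passed without another array.

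Some enzymes that make fatty acids fell. Of 10 measured genes of de novo synthesis 3 fell and none rose, with a median of -0.45, where 2.38% of all tested genes fell. Acly, which makes cytosolic acetyl-CoA from citrate, read 25489 and 22925 with CLA and 47346 and 49228 with LA, 2.0-fold lower, and Mid1ip1 and Pnpla3 fell as given above. Acss2, which makes acetyl-CoA from acetate, read 16832 and 13606 with CLA and 26739 and 25626 with LA (adjusted p = 0.0556). Fatty acid synthase, Fasn, read 44704 and 42793 with CLA and 44548 and 43592 with LA, with overlapping pools (adjusted p = 0.986). Past palmitate, the elongase Elovl6 read 12374 and 10513 with CLA and 22934 and 24117 with LA and the desaturase Scd2 read 19899 and 18488 with CLA and 39622 and 41314 with LA, 2.06-fold and 2.11-fold lower. Scd1 read 67392 and 63729 with CLA and 62438 and 61979 with LA, did not pass, and gave the brightest value of 1 or more arrays. Their regulators Srebf1, at 2118 and 3604 with CLA and 7418 and 10249.6 with LA, and Mlxipl, the gene of ChREBP, at 616 and 598 with CLA and 1593 and 2002 with LA, fell among 14 measured regulators. Pnpla3 kept its call without each array. Mid1ip1, Acly, Elovl6, Scd2, Srebf1 and Mlxipl lost theirs without the LA pool of replicate 2, and reached up to 0.0763, 0.0930, 0.0920, 0.0607, 0.203 and 0.151.

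**Figure D3:**
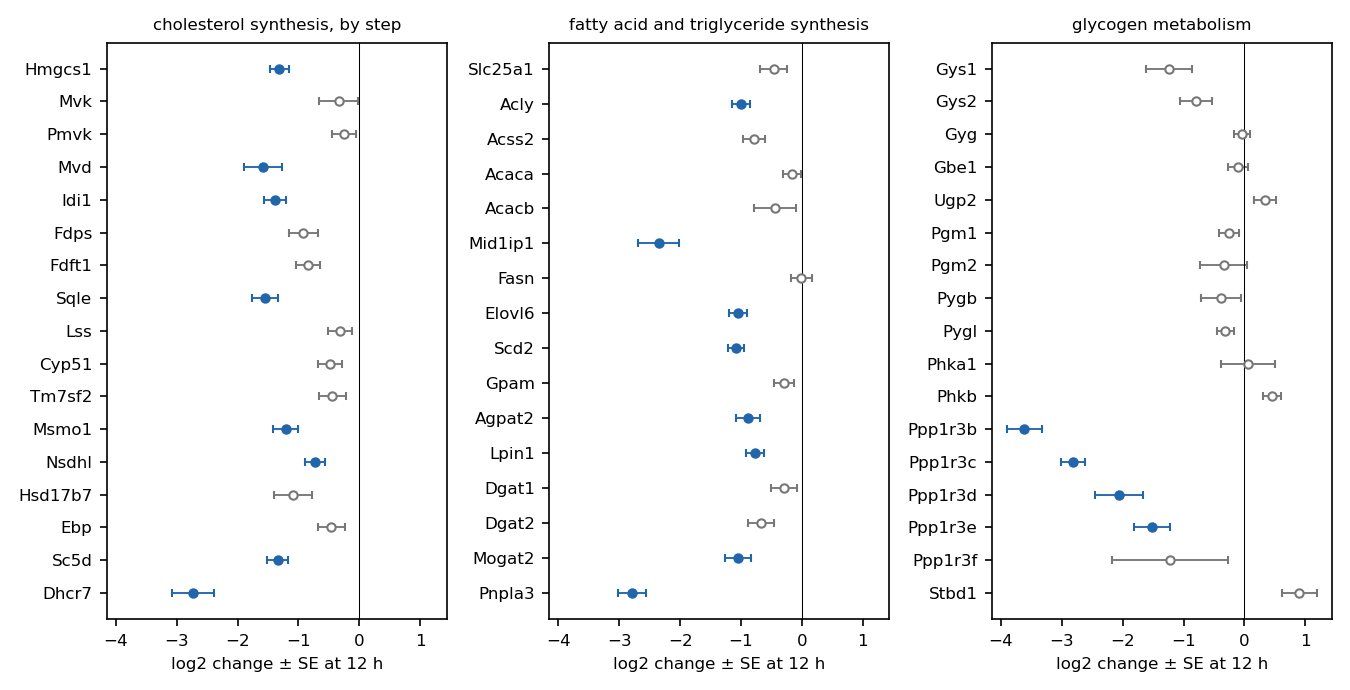
Log2 change of CLA minus LA pools at 12 h with its SE (horizontal) for genes of cholesterol synthesis in order of step (left), fatty acid and triglyceride synthesis (middle) and glycogen metabolism (right), filled where the gene passed. Blue points run through cholesterol synthesis from Hmgcs1 to Dhcr7, Fasn lies at 0, and among glycogen genes the 4 filled points are all phosphatase subunits.

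Of 16 measured assembly enzymes 3 fell, the acyltransferases Mogat2, at 611 and 577 with CLA and 1062 and 1453 with LA, and Agpat2, at 15219.7 and 18681 with CLA and 32916 and 29315 with LA, and the phosphatidate phosphatase Lpin1, at 8954 and 9100.2 with CLA and 14761 and 16137 with LA. Dgat2, which makes the last bond, read 22729 and 21611 with CLA and 34032 and 36393 with LA (adjusted p = 0.133). Among all tested genes 2.38% fell and 2.12% rose. Of 10 droplet proteins G0s2, an inhibitor of fat breakdown, fell, at 4672 and 9875 with CLA and 21264 and 21573 with LA. Of 13 lipolysis genes the protein kinase A subunit Prkaca fell, at 7938 and 9243 with CLA and 13608 and 14293 with LA, and the main lipase Pnpla2 read 20257 and 22116 with CLA and 17771 and 17038 with LA (adjusted p = 0.693). Among 14 genes of fatty acid uptake the ligase Acsl3 fell, at 749.7 and 939 with CLA and 2035 and 2401 with LA, Angptl4, which inhibits lipoprotein lipase, rose, at 12538 and 12166 with CLA and 4216 and 4571 with LA, and the receptor Lrp8 rose, at 107 and 206 with CLA and 12.4 and -10.8 with LA, at least 1.42-fold. Lipoprotein lipase, Lpl, read 62848 and 58011 with CLA and 58459 and 57707 with LA, with overlapping pools (adjusted p = 0.900). Each of these 8 called genes lost its call without either LA pool or others, with adjusted p up to 0.112 for Acsl3 and up to 0.241 for Agpat2.

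Glycogen in fat is a small, fast glucose store, and the PPP1R3 family places protein phosphatase 1 on it, which activates glycogen synthase. Of 25 measured glycogen genes 4 fell and none rose, against 2.38% of all tested genes that fell, and all 4 were members of that family. Ppp1r3e read 242 and 260.2 with CLA and 778 and 720.0 with LA, 2.86-fold lower, beside Ppp1r3b, Ppp1r3c and Ppp1r3d. Ppp1r3f did not pass, at -24.1 and 148 with CLA and 52.9 and 190.5 with LA. The glycogen synthases did not pass: Gys1 read 376 and 348 with CLA and 903 and 849 with LA (adjusted p = 0.119), and Gys2 read 2162 and 2236 with CLA and 3819 and 3823 with LA (adjusted p = 0.145). The liver-type phosphorylase Pygl read 15033 and 12326 with CLA and 16631 and 17191 with LA (adjusted p = 0.292). Ppp1r3b and Ppp1r3c kept their calls without each array, and Ppp1r3d and Ppp1r3e reached 0.141 and 0.150.

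Insulin signalling and glucose use held few calls, where 2.38% of all tested genes fell and 2.12% rose. Of 26 measured genes of the insulin pathway Pik3r1, the regulatory subunit of PI3-kinase, fell, at 1098 and 1489 with CLA and 3869 and 3472 with LA, 2.84-fold. The insulin-responsive glucose carrier Slc2a4 read 2120.3 and 2243 with CLA and 3643 and 3721 with LA (adjusted p = 0.224), the insulin receptor Insr read 1846 and 1982 with CLA and 2264 and 2172 with LA (adjusted p = 0.549), and the glyceroneogenic enzyme Pck1 read 16775 and 15559 with CLA and 8781 and 6614 with LA (adjusted p = 0.0503). Of 16 glycolysis genes Hk2, the hexokinase of insulin-sensitive tissues, fell, at 4136 and 4669 with CLA and 12006 and 11977 with LA, 2.72-fold, and Pfkp, a phosphofructokinase, fell, at 1704 and 1491 with CLA and 3201 and 3044 with LA. Pdk4, which shuts pyruvate dehydrogenase, rose, at 11569 and 10005 with CLA and 2923 and 4265 with LA, 3.04-fold, and Pdk1 read 2659.8 and 3268 with CLA and 4730.5 and 4568 with LA (adjusted p = 0.234). Pik3r1, Hk2, Pfkp and Pdk4 lost their calls without the LA pool of replicate 2, at up to 0.0638, 0.0596, 0.111 and 0.115 over all left-out arrays.

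Mitochondrial genes held few calls at 12 h. None of 89 oxidative phosphorylation genes passed (median -0.02), none of 76 mitochondrial ribosomal proteins (median 0.04) and none of 17 citric acid cycle genes. Of 20 genes of fatty acid oxidation the peroxisomal enzyme Ehhadh rose, at 2009 and 2392 with CLA and 1279 and 1138 with LA, and of 23 genes of branched-chain amino acid breakdown Ivd fell, at 2018 and 2239 with CLA and 3461 and 3382 with LA. Under another processing setting the log2 change of Ivd was as small as -0.34. Among 39 mitochondrial carriers the pyrimidine nucleotide carrier Slc25a33 rose, at 2919 and 3156 with CLA and 1087 and 1416 with LA, and Slc25a35 fell, at 975 and 886 with CLA and 1658 and 2109 with LA, shares near the 2.12% and 2.38% of all tested genes that rose and fell. The uncoupling protein of brown fat, Ucp1, was under 100 in all 4 pools, and Dio2, an activator of thyroid hormone, passed as a fall while its only value at or above 100 was 1 LA pool. None of 44 cytosolic ribosomal proteins passed. Ehhadh, Ivd, Slc25a33, Slc25a35 and Dio2 lost their calls without the LA pool of replicate 2, at up to 0.140, 0.194, 0.0841, 0.141 and 0.191 over all left-out arrays.

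Regulators of adipocyte identity fell in part, where 2.38% of all tested genes fell and 2.12% rose. Of 16 measured adipogenic factors 3 fell: Ppargc1b, a coactivator of nuclear receptors and SREBP, at 218 and 324 with CLA and 678 and 766 with LA; the retinoid receptor Rxrg, at 144 and 181 with CLA and 432 and 358 with LA; and Stat5a, at 697 and 932 with CLA and 1630.0 and 1875 with LA. Pparg, the master regulator of adipocytes, read 4236 and 4193 with CLA and 5964 and 5756 with LA (adjusted p = 0.102), and Cebpa read 4666 and 4234 with CLA and 7573 and 9749 with LA (adjusted p = 0.233). Both had non-overlapping pools, as 52.8% of all tested genes did, and did not pass. Of 11 adipokines Sfrp5, a secreted Wnt inhibitor, rose, at 1216 and 769 with CLA and 486 and 439.5 with LA. Leptin, Lep, the hormone that reports fat stores, read 11232 and 7451 with CLA and 20775 and 20827 with LA and did not pass (adjusted p = 0.0895). None of 15 Kruppel-like factors passed. Ppargc1b, Rxrg, Stat5a and Sfrp5 lost their calls without either LA pool, at up to 0.130, 0.210, 0.133 and 0.218 over all left-out arrays.

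Of 33 listed Hox genes, which mark position along the body and differ between fat depots, 17 passed the filter and 4 fell, all of the HoxC cluster. Hoxc9 passed the filter only through its LA pools of 12 h, where it was high, so its call adds no weight to that count. Falls made up 2.38% of all tested genes. Hoxc8 read 2821 and 3682 with CLA and 6451 and 7122 with LA and Hoxc6 read 757 and 1257 with CLA and 2254 and 2444 with LA, 2.10-fold and 2.38-fold lower. Hoxc5 read 53.5 and 163 with CLA and 1083 and 1173 with LA, at least 7.93-fold lower, and Hoxc9 read -73.4 and -71.1 with CLA and 285 and 310.3 with LA, at least 2.70-fold lower. Hoxc10 read 512 and 418 with CLA and 861 and 879 with LA (adjusted p = 0.137). Without either LA pool none of the 4 passed, and Hoxc9 then failed the filter on dim probe sets. Of 24 measured S-phase genes 3 fell, the helicase subunits Mcm2, at 241 and 159 with CLA and 465 and 497 with LA, and Mcm6, at 415 and 324 with CLA and 694 and 623 with LA, and E2f2, at 30.2 and -11.3 with CLA and 159 and 224 with LA, at least 1.76-fold. Of 20 mitotic genes Ccnd1, the cyclin of the G1 phase, fell, at 565 and 765 with CLA and 2044 and 2084 with LA, and Cdkn2c, which inhibits its kinase, fell, at 2939.9 and 3040.1 with CLA and 8968 and 6713 with LA. Ccnd1 lost its call without each of the 4 arrays of 12 h, and up to 7 S-phase genes passed under a left-out array and none without either LA pool.

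A few further genes passed from other lists, where 2.12% of all tested genes rose and 2.38% fell. Of 19 clock genes Bhlhe40 fell, while Arntl read 320.2 and 365 with CLA and 443 and 441 with LA (adjusted p = 0.571) and Dbp read 2928 and 2830.4 with CLA and 3244 and 3239 with LA (adjusted p = 0.883). The glucocorticoid list held 4 rises of 17, Mt1, Mt2, Pdk4 and Angptl4, all given above, while Per1 read 399 and 326 with CLA and 164 and 164 with LA (adjusted p = 0.306). Of 17 hypoxia genes P4ha1, a collagen hydroxylase, rose, at 1183 and 1198 with CLA and 538 and 503 with LA, and Vegfa read 2052 and 2442 with CLA and 1456 and 1846 with LA (adjusted p = 0.203). Ptger3, a prostaglandin E2 receptor that restrains lipolysis, fell, at 8296 and 7606 with CLA and 17548 and 19008 with LA, 2.30-fold, out of 22 prostaglandin genes. The aggrecan-cleaving proteases Adamts9, at 528 and 609.7 with CLA and 1607 and 2117 with LA, and Adamts5, at 3663 and 2672 with CLA and 8802 and 8477 with LA, fell, while none of 24 collagens passed. Of 19 growth factors Hgf, at 7.70 and 37.6 with CLA and 120.4 and 146 with LA, and the activin subunit Inhbb, at 706 and 563 with CLA and 1187 and 1348 with LA, fell. Adamts9 kept its call without each array, and P4ha1, Ptger3, Adamts5, Hgf and Inhbb reached up to 0.0504, 0.104, 0.153, 0.187 and 0.179.

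The same contrast at the other times, on other arrays, set 12 h in order. At 4 h 7 genes passed, 0.0556% of those tested, and at 24 h 1358 were higher (10.8%) and 1382 lower (11.0%). Of the 267 genes higher at 12 h, 201 were also higher at 24 h, 75.3% of them and 14.8% of the 24 h list. Of the 300 lower genes 172 were lower at 24 h, 57.3% and 12.4%. Atf3, Ccn1, Chac1, Hmox1 and Hspa1b passed at both 4 and 12 h, 5 genes singled out after their values were seen. Atf3 read 683 and 987 against 147 and 97 at 4 h and 1384 and 1192 against 128 and 174 at 24 h, CLA pools first, so its log2 change was 2.63, 2.85 and 2.97 at the 3 times. Hspa1b changed by 2.73, 4.25 and 4.65, and Trib3, whose 4 h value did not pass, by 2.14, 3.30 and 2.30.

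The diet effect at 12 h differed from that at 4 h in 3 genes, 0.0238% of those tested. Cbr3, a carbonyl reductase, read 319.6 and 299 against 386 and 357 at 4 h and 1317 and 1455 against 297 and 314 at 12 h, a difference of effects of 2.37 ± 0.20 on the log2 scale (adjusted p = 0.0210). Srxn1 read 1098 and 1156 against 1001 and 866 at 4 h, and its effect was larger at 12 h by 2.21 ± 0.20 (adjusted p = 0.0231). At 4 h the CLA pools of Cbr3 lay below the LA pools and neither gene passed, while at 12 h both CLA pools of each lay far above both LA pools. The third, Pole, a DNA polymerase subunit named after its values were seen, was higher with CLA at 4 h (2.79) and did not pass at 12 h (-1.02). Cbr3 and Srxn1 lost this call without 1 or more arrays, since 0 to 8 genes passed when each array was left out.

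Against 24 h the diet effect at 12 h differed in 291 genes, 2.31% of those tested, more positive at 12 h in 126 and more negative in 165. Among the genes higher at 12 h, the 24 h effect was larger in 8 and smaller in 3, and among the lower genes it was more negative in 6 and less negative in 15. The chemokines Cxcl2 and Ccl7 and the pentraxin Ptx3 were among the 8. At 24 h Cxcl2 read 2702 and 2572 against 36 and 46.7, CLA pools first, Ccl7 read 1512 and 1818 against 112 and 123, and Ptx3 read 6852 and 6957 against 144 and 71.2. Elovl6 and Acly were among the 6, with log2 changes of -1.04 and -1.0 at 12 h and -3.28 and -2.15 at 24 h. Bcl6 went the other way: at 24 h it read 1304 and 1266 against 1209.7 and 1058 and did not pass, and its diet effect was lower at 12 h by the test of the difference (-2.16 ± 0.44, adjusted p = 0.0490). Hoxc9 passed as lower at 12 h and as higher at 24 h, but its 24 h values, 68.7 and 79.5 against 27 and -149.6, were all under 100. The 3 genes whose rise was smaller at 24 h were Ehhadh, Ntpcr and Vwa8, named after their values were seen, and Ehhadh turned from 0.85 to -0.61.

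Most of the largest differences between the times lay in genes that did not pass at 12 h. Icam1, which leukocytes hold on to at the vessel wall, read 192 and 160.1 against 216 and 260.0 at 12 h and 1374 and 1392 against 183 and 193 at 24 h, CLA pools first. Csf1, the growth factor of macrophages, read 653 and 876 against 708 and 889 at 12 h and 5290.1 and 5762 against 614 and 615 at 24 h. Star, the cholesterol carrier of steroid synthesis, read 293 and 315 against 320.0 and 304 at 12 h and 2842 and 3647 against 278 and 391 at 24 h. None of the 3 passed at 12 h, where the CLA pools of Icam1 lay below the LA pools and those of Csf1 and Star overlapped them, and at 24 h the CLA pools lay far above in all 3. Ifit1, an interferon-induced gene, read 515 and 651 against 1447 and 1129 at 12 h, lower with CLA without passing, and 1988 and 1812 against 596 and 342 at 24 h. Acss2 read 16832 and 13606 against 26739 and 25626 at 12 h and 4059.8 and 3035 against 31084 and 32852 at 24 h, and Mfsd3 read 443 and 489.9 against 743 and 773 at 12 h and 36 and -91.7 against 705 and 775 at 24 h. Malat1, a nuclear RNA, read 846 and 850.5 against 442 and 474 at 12 h and 9289 and 9941 against 510.5 and 467 at 24 h on its brightest probe set, while none of its 7 probe sets passed at 12 h when all probe sets were tested. Leaving out 1 array at a time, 19 to 658 genes differed between 12 and 24 h.

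**Figure D4:**
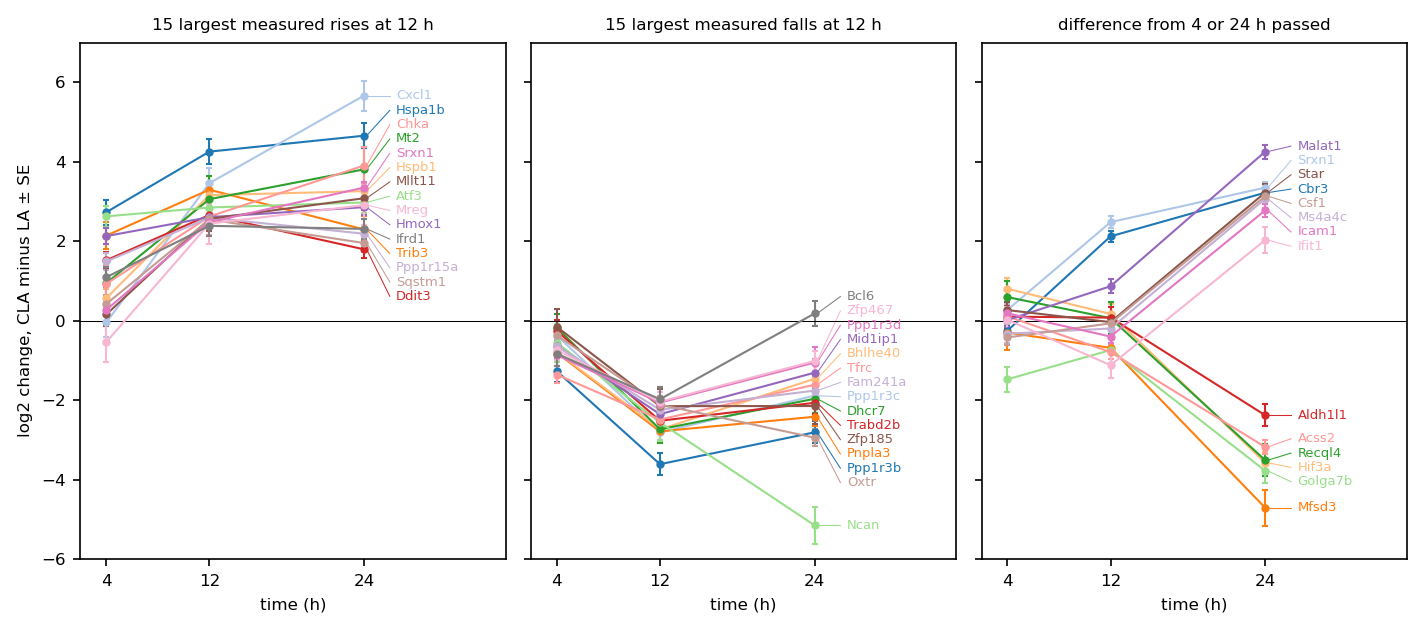
Log2 change of CLA minus LA pools with its SE (vertical) at 4, 12 and 24 h (horizontal) for the 15 largest measured rises at 12 h (left), the 15 largest falls (middle) and 14 genes whose diet effect at 12 h differed from 4 or 24 h (right), 2 pools a diet at each time. Lines on the left and in the middle mostly start nearer to 0 at 4 h and keep the sign of 12 h at 24 h, Bcl6 lies near 0 at 24 h, and the right panel fans out after 12 h.

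The authors' deposited table of 12 h gives each probe set a ratio with its p-value. Its header does not name the direction, and its log ratio followed the CLA minus LA difference of the arrays with a Pearson r of 0.968 across 6339 bright genes, which share the arrays, so it was read as CLA over LA. By the p-values of the authors' deposited table, adjusted over all probe sets, 1494 of the genes tested here passed, 11.9%. They included 481 of the 567, 84.8% of those and 32.2% of the 1494. The ratio in the authors' deposited table had the same direction for 566 of the 567, all but 4930573C08Rik. In the authors' deposited table Hspa1a had a ratio of 26.3, Cxcl10 18.9, Trib3 21.2 and Hspa1b 19.3. Ppp1r3b had a ratio of 0.0765 in the authors' deposited table, 13.1-fold lower with CLA.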

How the data were processed

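Per the labels' protocols, biotinylated cRNA was made from 15 ug of Trizol-extracted total RNA of each pool and hybridised to 1 Affymetrix array. The authors deposited probe set intensities, linear and partly below 0, with summary method and scale not given in the sources used here. The authors also deposited a table of 12 h, named for the Rosetta Resolver software, with a fold ratio, a log10 ratio and a p-value per probe set, per the file headers.

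Each array was scaled to a 2% trimmed mean of 500, values below 0 were set to 0, and 16 was added before log2. Of 45101 probe sets 64 controls were dropped and 25922 reaching 100 on at least 2 of 12 arrays were kept. The platform table gave 34958 probe sets 1 symbol, 932 several and 9160 none, and the brightest single-symbol probe set stood for its gene. limma 3.58.1 in R 4.3.3 was fitted over all 6 groups, with Benjamini-Hochberg adjustment over all genes, after being tested on simulated data. Promoter motifs were counted in RefSeq sequences with Python 3.11.15.

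The genes named are the 15 largest rises and falls that passed and reached 100 on all 4 arrays, up to 6 a direction whose diet effect differed between times, and the called and main members of the gene lists. Genes, lists and tests were chosen with earlier results of these data known. The labels call the pools biological replicates and do not pair their numbers across diets, so the fit had no block, and p-values measure the spread between pools. Alternatives were another scaling, offset, filter, probe set rule, prior and block, and leaving out each array.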

Additional observations from a re-analysis of the deposited data

Results flagged for a closer look

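The diet effect of 14 genes was singled out because it differed between 12 h and another time by the test of that difference (limma, adjusted over all genes). Against 4 h it was larger at 12 h by 2.37 in Cbr3 and by 2.21 in Srxn1, on the log2 scale.

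Against 24 h it was more positive at 12 h by 4.03 in Mfsd3, 3.74 in Hif3a, 3.57 in Recql4, 3.04 in Golga7b, 2.46 in Aldh1l1 and 2.39 in Acss2. None of these 6 passed at 12 h, and all 6 were lower with CLA at 24 h. Hif3a, a hypoxia-inducible factor subunit, read 203 and 177 against 208 and 134 at 12 h and 6.40 and -21.2 against 202 and 217 at 24 h, CLA pools first, and Aldh1l1, a folate enzyme, read 4517 and 3649 against 4080.2 and 3630.1 at 12 h and 1193 and 880.3 against 4897 and 5968 at 24 h. Golga7b read 237 and 209 against 373 and 392 at 12 h and -24 and -28.2 against 154 and 268 at 24 h, and Recql4, a DNA helicase, read 181 and 254 against 279 and 149.6 at 12 h and 43.6 and 11.5 against 392 and 507 at 24 h. The 24 h CLA values of Mfsd3, Hif3a, Golga7b and Recql4 were under 100, so the sizes of those 4 differences depend on the constant added before log2.

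The difference of 12 h minus 24 h was -3.39 in Malat1, -3.27 in Ms4a4c, -3.26 in Star, -3.20 in Csf1, -3.18 in Icam1 and -3.15 in Ifit1. Ms4a4c read 122 and 109 against 134 and 136 at 12 h and 1028 and 969 against 140.1 and 77.7 at 24 h. Of these 6 only Malat1 passed at 12 h, and each was higher with CLA at 24 h.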

How the results depend on the processing

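With a single factor for all arrays in place of one for each, 73 genes were higher and 120 lower, 37.8% higher against 47.1%, and 112 differed from 24 h. That setting moved the median log2 change of all genes to -0.15, and 190 of its 193 calls were among the 567. The medians of 5 lists then changed sign, to -0.04 for autophagy, -0.04 for lipolysis, -0.07 for fatty acid uptake, -0.03 for pyruvate dehydrogenase and -0.0047 for branched-chain amino acid breakdown. An offset of 64 gave 11 genes that differed from 4 h and 505 from 24 h. A stricter filter gave 469 lower genes, 35 that differed from 4 h and 772 from 24 h. Averaging a gene's probe sets gave 189 against 24 h, and a prior that follows the level gave 417 higher, 509 lower, 84 against 4 h and 992 against 24 h. Fitted on the 4 arrays of 12 h alone, limma called 0 genes higher and 0 lower, with 2463 at an unadjusted p under 0.05. With the replicate number as a block, a pairing the labels do not give, 240 were higher, 263 lower, 468 of them among the 567, and 0 differed from 4 h, so Cbr3 and Srxn1 lost that call. The deviations of same-numbered pools of the diets correlated at 0.42 at 12 h, with a range of -0.37 to 0.42 over all pairs of groups. Leaving out each array gave 41 to 374 higher, 17 to 447 lower, 0 to 8 against 4 h and 19 to 658 against 24 h. Quantile scaling, an offset of 4 and no filter kept each of the 12 h counts within 1.5 times. No called gene that the text names changed direction under any setting. The number of arrays limits the precision, and values under 100 are bounds.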
